A study of Mus musculus with 16 samples.

Results

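Livers of old mice that had received a plasmid coding for human MANF were compared with livers of old mice that had received the empty plasmid. The comparison took the 8 old libraries of the 16 in the series by their labels, 4 labelled Old HTV MANF and 4 labelled Old HTV Cntrl. Genes were tested where at least 4 of these 8 libraries reached 0.5 RPKM (reads counted per kilobase of a gene, scaled to library size), which kept 10463 of 24010 table entries. The other 13547 entries were not tested, and 7105 of them were listed at 0 in all 8 libraries.

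All mice were C57BL/6, the old ones 23 months and the young ones 5 months old. The young ones served to test whether the difference depended on age and for a comparison of their own. They also added to the estimate of the spread in fits to all 16 libraries. Every group, controls included, had a hydrodynamic tail vein injection (HTV), a fast injection of a large volume that drives plasmid into the liver. The plasmid was of the EEV kind, an episomal vector, either empty or carrying the human MANF sequence (hMANF), and livers were analysed 5 weeks afterwards. The labels used here state neither the sex of the mice, nor the hour of collection, nor the promoter of the plasmid or the share of hepatocytes that took it up. Each group has 4 numbered samples of liver. The labels do not say in words that each came from another mouse, so the p-values measure the spread between these samples. Reads were aligned to the mouse genome, so reads of the human transgene were counted only where they matched mouse Manf, and the level of the plasmid itself was not measured.

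MANF, mesencephalic astrocyte-derived neurotrophic factor, is a small protein that resides in the lumen of the endoplasmic reticulum (ER) and is also secreted. It binds the ER chaperone BiP, the product of Hspa5, and its own gene is switched on by the unfolded protein response, in which the sensors IRE1, ATF6 and PERK raise chaperones, degradation factors and the transcription factor ATF4. Outside the cell MANF is known for acting on macrophages and other immune cells, and liver is an organ in which hepatocytes with a large secretory load sit beside resident macrophages (Kupffer cells), stellate cells and sinusoidal endothelium.

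The shared sequence of chaperone genes in this response is the ER stress response element (ERSE), which ATF6 and NF-Y bind, and it is shown here because the genes that carry it are those compared first. RefSeq promoter windows (GRCm38.p6, 250 bases before to 50 after the start of each gene) were searched on both strands for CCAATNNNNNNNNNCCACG, in which N is any base. It was found in 39 of 32851 windows (0.119%). It lay in the windows of 7 of the 15 ER chaperone and folding genes that had one, and in 2 of the 13 of the list for ER-associated degradation (ERAD) and translocation. The element was described on genes of this kind, so the match is a description. The whole windows of Hspa5 (chr2:34771840-34772139, plus strand, match starting 65 bases before the gene start) and of Creld2 (chr15:88819396-88819695, plus strand, match on the minus strand, starting 126 bases before the gene start) are printed 5′ to 3′, with the match in capitals.
Hspa5 promoter: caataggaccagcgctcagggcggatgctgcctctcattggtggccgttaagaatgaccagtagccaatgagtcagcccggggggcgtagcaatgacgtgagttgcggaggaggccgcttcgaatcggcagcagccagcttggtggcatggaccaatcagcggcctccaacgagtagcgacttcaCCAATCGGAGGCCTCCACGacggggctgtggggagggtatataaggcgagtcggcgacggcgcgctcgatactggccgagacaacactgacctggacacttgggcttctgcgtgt
Creld2 promoter: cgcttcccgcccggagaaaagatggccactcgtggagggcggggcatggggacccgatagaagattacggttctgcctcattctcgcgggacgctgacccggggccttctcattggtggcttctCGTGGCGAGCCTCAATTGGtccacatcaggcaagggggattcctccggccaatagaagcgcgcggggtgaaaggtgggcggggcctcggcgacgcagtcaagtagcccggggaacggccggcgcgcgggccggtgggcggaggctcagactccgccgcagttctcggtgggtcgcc

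The matches in the windows of the other chaperone genes are given in the direction in which the element reads, with its fixed letters in capitals and the 9 free letters in lower case, so that the variable spacer can be compared.
Hsp90b1 (chr10:86705638-86705656, minus strand): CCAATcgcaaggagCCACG
Hsp90b1 (chr10:86705533-86705551, plus strand): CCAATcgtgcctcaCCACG
Calr (chr8:84847075-84847093, plus strand): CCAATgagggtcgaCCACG
Canx (chr11:50325800-50325818, minus strand): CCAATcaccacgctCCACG
Pdia6 (chr12:17266491-17266509, plus strand): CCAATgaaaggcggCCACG
Dnajc3 (chr14:118937827-118937845, plus strand): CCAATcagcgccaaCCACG
The windows of Sdf2l1 and Pdia4 held no match to these letters.

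The 8 libraries had been scaled to 18.31 to 22.16 M reads (M, megareads), and 1 RPKM in a gene of 2 kb stood for 36.6 to 44.3 reads. Control 4 stood apart. Its root mean square distance to the other livers of its group was 0.55 on the log2(RPKM + 0.5) scale, against 0.262 to 0.364 for the other 7 livers. On the first principal component, which held 38.8% of the variance, controls 1 to 3 lay at -20 to -17.4, the MANF livers at 2.04 to 10.7 and control 4 at 36.1. Calls are therefore given with and without control 4. Albumin, the main hepatocyte transcript, was read at 20091 RPKM in control 4 and at 27724 to 34329 RPKM in the other 7 livers. Of the markers of other tissues, only Cpa1 of the exocrine pancreas and Myh4 of skeletal muscle were at 0 in all 8 livers. Prss2 and Ckm of the same tissues reached 0.067 and 0.0168 RPKM. Hemoglobin RNA varied, with Hbb-bs at 12.6 to 80.8 RPKM in controls and 18.4 to 44.9 in MANF livers. Hba-a1 was at 4.25 to 30.6 RPKM in controls and 7.4 to 15 in MANF livers. Alas2 was at 28.6 to 41.3 and 28.8 to 43.4 RPKM, and Fabp4 at 0.972 to 2.13 and 0.961 to 4.11 RPKM.

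With all 8 livers, 5 genes (0.0478% of those tested) were higher and 1 (0.00956%) was lower in MANF than in control livers at a limma p below 0.05 after Benjamini-Hochberg adjustment over the 10463 genes. Without control 4, 161 genes (1.54%) were higher and 35 (0.335%) lower, and these included all 6 of the first calls. The 196 calls depended on which other liver was left out too. There were 0 calls without control 1, 0 without control 2, 1 without control 3, 3 without MANF 2, 4 without MANF 4, 189 without MANF 1 and 247 without MANF 3. Of the 196 genes, 1 was among the calls without control 3, 2 among those without MANF 2, 2 without MANF 4, 122 without MANF 1 and 147 without MANF 3. When the spread was estimated over all 16 libraries less control 4, 151 genes were called, 95 of them among the 196. The direction of the calls depended on the scaling: when libraries were scaled to equal medians, 60 genes (0.573%) were higher and 51 (0.487%) lower. Most genes leaned upwards, with 59.1% of all tested differences above 0 with control 4 and 67.1% without it, and medians of 0.03 and 0.08. Where control 4 lay was read for the 161 genes called higher without it. It was above all MANF livers in 72, within their range in 33, between the other controls and the MANF livers in 42, within the other controls in 12 and below them in 2.

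More reads were assigned to mouse Manf in the old MANF livers. It was read at 5.99, 5.95, 6.87 and 8.26 RPKM in controls 1 to 4 and at 17.4, 11.2, 17.8 and 11.5 RPKM in MANF livers 1 to 4, and the groups did not overlap. The difference was a log2 of 1.02 (SE 0.18), or 2.03-fold, and the exact two-sided permutation test gave p = 0.0286, the smallest that 4 against 4 livers can give. In limma across all genes the adjusted p was 0.154 with all 8 livers and 0.0323 without control 4 (log2 1.11). The call without control 4 was lost when control 1, 2 or 3 or MANF 2 or 4 was also left out, with limma adjusted p up to 0.128. In young livers Manf differed by log2 0.16, or 1.12-fold, and the exact permutation test gave p = 0.486. Manf lies on chr9:106838312-106891979 (GRCm38, minus strand), where its exons share 166 bases with 4930524O07Rik and 146 with Dcaf1 on the opposite strand, and the strand setting of the read counting is not given in the sources used here. Its paralog Cdnf, with 0.102 to 0.158 RPKM in the 8 livers, was too low to test.

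ER partners of MANF and other genes of the unfolded protein response lay mostly above the controls, but few passed the test, and those when control 4 was left out. Hspa5 (chr2:34771970-34777547, plus strand), which codes for the chaperone BiP, was read at 71.4, 66.4, 66.2 and 69 RPKM in controls and at 125, 85.7, 134 and 91.2 RPKM in MANF livers. All 4 MANF livers lay above all 4 controls, by a log2 of 0.64 (limma adjusted p = 0.185, and 0.0796 without control 4). Creld2, a secreted ER protein of the same response, was read at 12.4, 8.58, 13.2 and 15.4 RPKM in controls and at 28.2, 13.9, 21.7 and 13.4 RPKM in MANF livers, so the groups overlapped (log2 0.58, limma adjusted p = 0.507, and 0.192 without control 4). Control 4 was the highest control for both Manf and Creld2.

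Of the 18 ER chaperones and folding enzymes, all tested, none passed with all 8 livers, 16 differences lay above 0 and the median was 0.31, against 0.03 over all genes. In 4 of the 18, namely Hspa5, Hsp90b1, Pdia4 and Dnajb11, every MANF liver lay above every control, as in 3.51% of all tested genes. Without control 4, 2 of the 18 rose, against 1.54% of all genes, and the median was 0.41, against 0.08 over all genes. One was Sdf2l1, a partner of ER DnaJ proteins, at 5.5, 5.63, 6.44 and 11.9 RPKM in controls and 12.3, 10.4, 12.5 and 8.86 RPKM in MANF livers (log2 0.85, limma adjusted p = 0.0289). The other was Pdia4, a protein disulfide isomerase, at 29.3, 25.3, 29.9 and 38.5 RPKM in controls and 59.8, 42.6, 52.9 and 39.4 RPKM in MANF livers (log2 0.76, limma adjusted p = 0.0496). For Sdf2l1, control 4 lay within the range of the MANF livers. With control 1, 2 or 3 or MANF 2 or 4 also left out, neither was called (limma adjusted p up to 0.164), and Pdia4 also lost its call without MANF 1 or 3. Pdia4 was not called under median scaling (limma adjusted p = 0.0766), nor in the fit to all 16 libraries less control 4.

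Other chaperones with the ERSE differed by unequal amounts, and none was called. Calr, coding for calreticulin, which holds glycoproteins during folding, differed by a log2 of 0.47 (limma adjusted p = 0.303, and 0.0548 without control 4), and Pdia6, another disulfide isomerase, by 0.39 (limma adjusted p = 0.33, and 0.0506 without it). Hsp90b1, which codes for the ER form of HSP90, was read at 101 to 121 RPKM in controls and at 125 to 150 RPKM in MANF livers (log2 0.31, limma adjusted p = 0.279, and 0.077 without control 4). Canx and Dnajc3, chosen for their ERSE after their values were seen, code for calnexin and for a co-chaperone of BiP. Their differences were log2 0.16 and 0.08 (limma adjusted p = 0.596 and 0.874, and 0.263 and 0.748 without control 4).

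**Figure D1:**
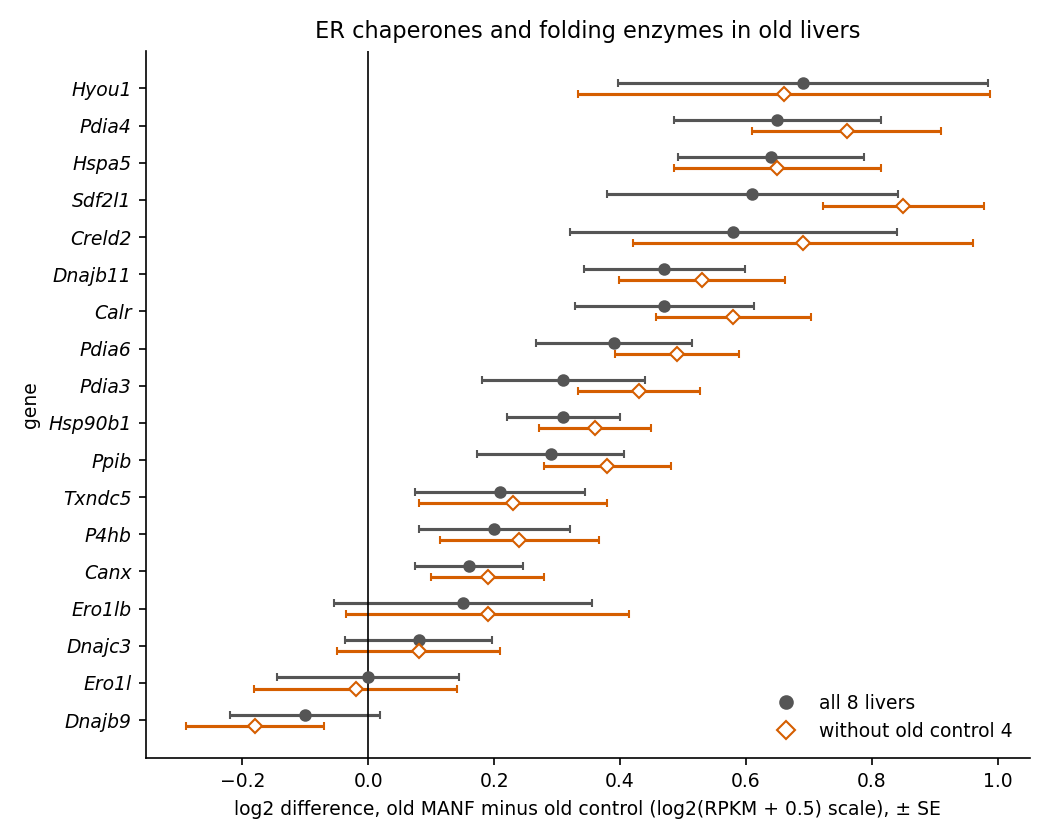
Difference between the mean log2(RPKM + 0.5) of old MANF and old control livers for the 18 ER chaperones and folding enzymes, with all 8 livers (4 against 4) and without control 4 (4 against 3), bars showing the standard error from limma. Most points lie to the right of 0, with medians of 0.31 and 0.41, and 2 genes, Sdf2l1 and Pdia4, were called without control 4.

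Genes of ER-associated degradation and of translocation into the ER were higher in most members. Of 15 tested, 12 lay above 0 with a median of 0.22, and none was called with all 8 livers. Without control 4 the median was 0.25 and 1 of the 15 rose, against 1.54% of all genes. It was Edem2, a mannosidase-like protein that marks misfolded glycoproteins (log2 0.48, limma adjusted p = 0.0436). Its levels were 8.64, 8.09, 8.28 and 11.4 RPKM in controls and 10.5, 12.8, 12.6 and 11.4 RPKM in MANF livers, so control 4 was level with MANF 4. Without control 1, 2 or 3 or MANF 2, 3 or 4 as well it was not called (limma adjusted p up to 0.156), nor under median scaling (0.0713).

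Targets of ATF4, the transcription factor behind the integrated stress response, were read unevenly among the MANF livers. Of 15 tested, 12 lay above 0 with a median of 0.32, and none was called with or without control 4. Asns, asparagine synthetase, was read at 0.343 to 1.05 RPKM in controls and at 1.01, 9.68, 2 and 7.76 RPKM in MANF livers 1 to 4. MANF 2 and 4 were far above the other 6 livers, and the difference of log2 1.87 was not called (limma adjusted p = 0.323, and 0.14 without control 4). Atf5, a transcription factor of the same response, was read at 34.3, 40.2, 45.7 and 34.6 RPKM in controls and at 70.5, 85.8, 113 and 61.4 RPKM in MANF livers without overlap (log2 1.06, limma adjusted p = 0.154, and 0.0511 without control 4). Trib3, a pseudokinase target of ATF4, and Gdf15, a stress-induced cytokine, differed by log2 0.93 and 1.01 (limma adjusted p = 0.341 and 0.274, and 0.12 and 0.0796 without control 4).

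The 6 genes called with all 8 livers belong to circadian repression, thyroid hormone activation, amino acid metabolism, a transporter and an actin regulator, and in none did the groups overlap. Nr1d1 (chr11:98767932-98775333, minus strand) codes for the nuclear receptor REV-ERBα, a repressor in the circadian clock. It was read at 7.25, 7.17, 7.54 and 7.79 RPKM in controls and at 18.1, 15.2, 26.4 and 20.3 RPKM in MANF livers. The group means were 7.44 ± 0.281 and 20 ± 4.77 RPKM (SD, n = 4), and the rise was a log2 of 1.34 (SE 0.149), or 2.53-fold (limma adjusted p = 0.0483). Dio1 (chr4:107291465-107307169, minus strand) codes for the deiodinase that converts thyroxine to the active hormone T3 in liver. It was read at 39.3, 28.3, 39.3 and 34.9 RPKM in controls and at 15.3, 10.8, 16.5 and 11 RPKM in MANF livers. It was the only fall, by 1.39 on the log2 scale (SE 0.166, limma adjusted p = 0.0483), from 35.5 ± 5.19 to 13.4 ± 2.91 RPKM (SD, n = 4).

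Both enzymes of amino acid metabolism among the 6 rose by about the same amount in every MANF liver. Kyat1 (chr2:30185124-30205847, minus strand), a kynurenine and glutamine transaminase, was read at 20.5, 19.5, 19.1 and 19.9 RPKM in controls and at 29.6, 30.9, 28.8 and 29 RPKM in MANF livers (log2 0.57, SE 0.0621, limma adjusted p = 0.0483). Amt (chr9:108296853-108302302, plus strand), the aminomethyltransferase of the mitochondrial glycine cleavage system, was read at 8.26, 8.72, 8.26 and 8.2 RPKM and at 11.7, 11.8, 12.1 and 12.9 RPKM (log2 0.51, SE 0.0637, limma adjusted p = 0.0485). The spread within each group was far smaller than the distance between them for both genes.

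The remaining calls were a membrane transporter and an actin regulator. Abca8b (chr11:109932190-109995845, minus strand), an ABC transporter of subfamily A, was read at 6.23, 6.04, 6.24 and 6.23 RPKM in controls and at 9.71, 12, 9.7 and 11.8 RPKM in MANF livers (log2 0.75, SE 0.0891, limma adjusted p = 0.0483). Eps8l2 (chr7:141338880-141363020, plus strand), which links receptor signalling to actin, was read at 5.21, 4.95, 5.05 and 5.04 RPKM and at 7.47, 8.53, 7.78 and 9.22 RPKM (log2 0.65, SE 0.0793, limma adjusted p = 0.0483). The controls, control 4 included, lay within a narrow band for both. Reads of overlapping genes on the opposite strand may add to 3 of the 6: Nr1d1 shares 263 exon bases with Thra, Eps8l2 1729 with B230206H07Rik and Abca8b 241 with Gm11697.

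All 6 stood close to the threshold. Without control 4 they were called at adjusted p of 0.0241 to 0.0272. Without control 1, 2 or 3 or MANF 1 or 4, none of the 6 was called, and without MANF 2 or MANF 3 Nr1d1 alone was called. The limma adjusted p of the 6 reached between 0.241 and 0.251 in the runs that left out 1 liver, while each log2 difference kept its direction. Under median or quantile scaling none of the 6 was called. In the fit to all 16 libraries Abca8b, Eps8l2 and Amt were not called (limma adjusted p = 0.134, 0.0632 and 0.0632), and Nr1d1, Kyat1 and Dio1 were.

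**Figure D2:**
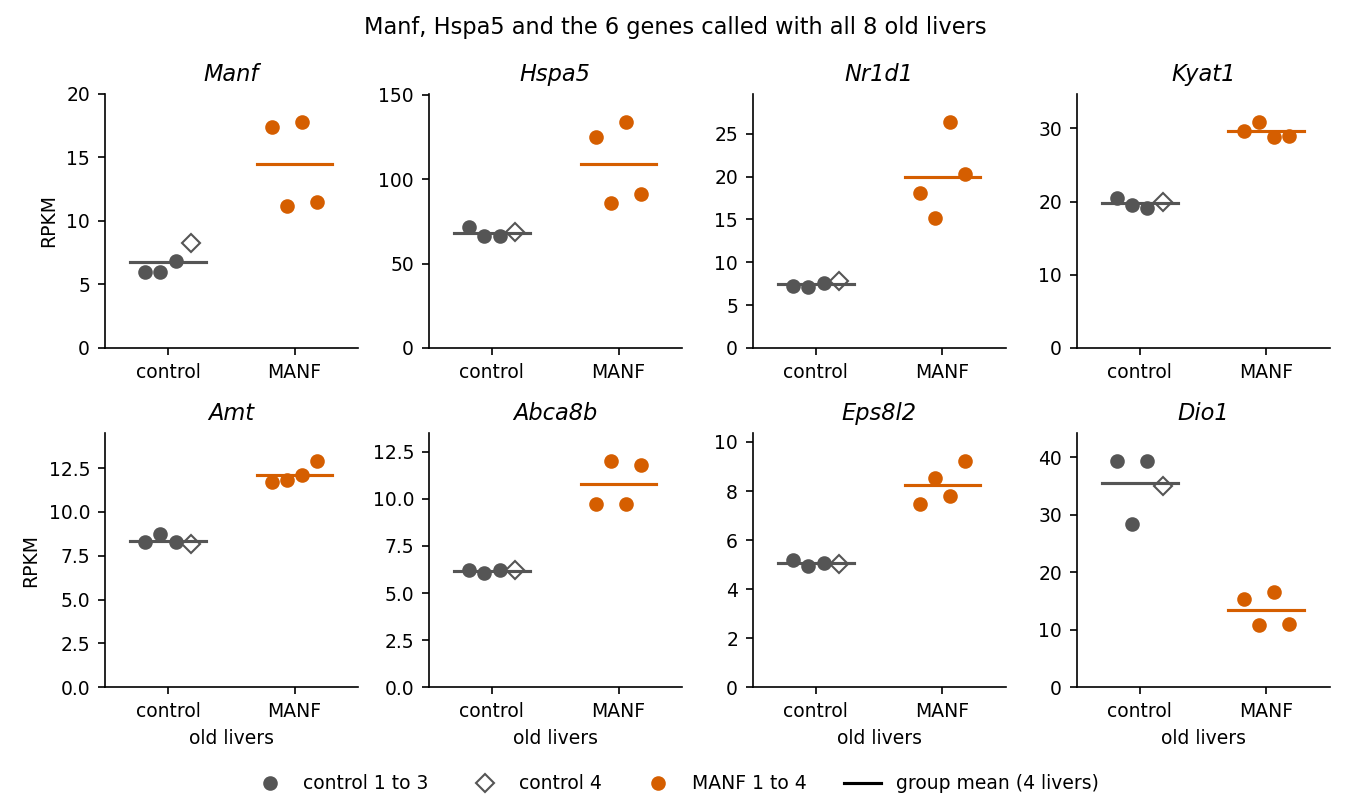
RPKM of each old liver for the 6 genes called with all 8 livers and for Manf and Hspa5, controls beside MANF livers on linear axes that start at 0, with horizontal bars for the group means. In all 8 panels the MANF livers and the controls do not overlap, and control 4, drawn as an open diamond, lies near the other controls, as at 7.79 RPKM for Nr1d1.

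The same genes in young mice were read from 8 other libraries. Nr1d1 was the only gene higher (0.00956% of those tested) in young MANF livers, at 18.8 ± 4.35 RPKM against 6.46 ± 1.10 RPKM in young controls (SD, n = 4, log2 1.46, limma adjusted p = 0.00226), and none was lower (0%). Its difference did not depend detectably on age, with a log2 between the ages of -0.12 (SE 0.236, limma adjusted p = 0.875). Amt was at 8.53 ± 1.19 and 11.9 ± 1.21 RPKM in young control and young MANF livers (SD, n = 4, log2 0.46, limma adjusted p = 0.128). Dio1 was at 74.3 ± 3.56 and 53.4 ± 9.09 RPKM (SD, n = 4, log2 -0.49, limma adjusted p = 0.226), and its fall was larger in old mice by 0.90 on the log2 scale at an unadjusted limma p of 0.000624, which did not pass adjustment (0.481). The differences of Kyat1, Abca8b and Eps8l2 in young mice were log2 0.21, 0.26 and 0.41, none of them called.

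Genes next in the order of p included several that were separated in every liver. Arrdc3, an α-arrestin that directs receptor traffic, was read at 7.76, 7.5, 7.55 and 7.54 RPKM in controls and at 34.8, 19.9, 17.5 and 17.4 RPKM in MANF livers. The difference of log2 1.44 had a limma adjusted p of 0.095 with all 8 livers and 0.0315 without control 4. Cbs, cystathionine β-synthase of the transsulfuration pathway, was read at 50.1 to 72.8 RPKM in controls and 93.2 to 116 RPKM in MANF livers (log2 0.78, limma adjusted p = 0.145, and 0.0323 without control 4). Neither was called with all 8 livers, while both were without control 4, as were Cald1, an actin-binding protein of contractile cells (log2 0.53), Rhou, a small GTPase (0.76), and Tns2, a tensin of focal adhesions (0.50). Each lost the call when control 1, 2 or 3 or MANF 2 or 4 was also left out, with limma adjusted p up to 0.128, and Cbs lost it under median scaling (0.0523). Cald1 and Tns2 also lost it in the fit to all 16 libraries less control 4. With control 4 kept, Arrdc3 was called without MANF 1 (limma adjusted p = 0.00512), and Rhou in the fit to all 16 libraries (0.0444).

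On the lower side, the scavenger receptor Cd163 of resident macrophages was read at 2.14, 2.82, 1.19 and 1.83 RPKM in controls and at 0.689, 0.502, 0.37 and 0.247 RPKM in MANF livers. All MANF livers lay below all controls, as in 1.82% of all tested genes, by -1.37 on the log2 scale (limma adjusted p = 0.134, and 0.0384 without control 4). Acot11, a thioesterase of fatty acyl-CoA, differed by -0.92 (limma adjusted p = 0.107, and 0.0272 without control 4) and Sftpa1, surfactant protein A, by -0.92 (0.165, and 0.0272 without it). Adap2, an Arf GTPase-activating protein, and Lpgat1, an acyltransferase, differed by -0.54 and -0.41, and both fell without control 4 (limma adjusted p = 0.0475 and 0.0476). Slc22a7, an organic anion transporter, and Abcd4, a lysosomal transporter of cobalamin, differed by -1.15 and -0.43 and were not called either way (limma adjusted p = 0.0627 and 0.0572 without control 4). The calls without control 4 were lost when control 1, 2 or 3 or MANF 2 or 4 was also left out (limma adjusted p up to 0.16), and also without MANF 3 for Cd163 and without MANF 1 or 3 for Adap2 and Lpgat1. Adap2 was not called under median scaling (limma adjusted p = 0.0517). Cd163, Sftpa1, Adap2 and Lpgat1 were not called in the fit to all 16 libraries less control 4. With control 4 kept, Acot11 was called in the fit to all 16 libraries (limma adjusted p = 0.0386).

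Stellate cell and extracellular matrix genes were the list with most calls without control 4. Of 23 tested, 9 rose, against 1.54% of all genes, and 22 lay above 0 with a median of 0.70, against 0.08 over all genes. With all 8 livers none was called, 23 lay above 0 and the median was 0.47. The 9 were Col1a1, Col1a2, Col3a1, Col14a1, Pdgfrb, Colec11, Lrat, Dcn and Bgn, of which Col1a2 and Bgn are named because the list's calls were seen. In bulk liver, more cells of a type and more RNA per cell cannot be told apart.

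The 9 genes differed in where control 4 lay. Col3a1, a fibrillar collagen chain, was read at 1.11, 1.15, 0.794 and 8 RPKM in controls and at 2.43, 2.75, 3.34 and 4.09 RPKM in MANF livers (log2 1.25 without control 4, limma adjusted p = 0.0241). Col1a1, the main fibrillar collagen, was at 0.374, 0.453, 0.2 and 4.02 RPKM against 1.06, 1.33, 1.23 and 2.1 RPKM (log2 1.18, limma adjusted p = 0.0323). In both, control 4 was the highest of the 8 livers and the MANF livers lay between it and the other controls. Pdgfrb, the PDGF receptor that marks stellate cells and pericytes, was at 0.539, 0.797, 0.865 and 1.7 RPKM against 1.58, 1.81, 1.78 and 1.93 RPKM (log2 0.89, limma adjusted p = 0.0241), with control 4 inside the range of the MANF livers. Colec11, a collectin made by stellate cells, was at 12.3, 13.9, 13.9 and 19.7 RPKM against 22.2, 24.7, 18.3 and 23.2 RPKM (log2 0.70, limma adjusted p = 0.0323). Dcn, the proteoglycan decorin, was at 56, 67.9, 64.5 and 75.8 RPKM against 101, 80.8, 93.9 and 98.5 RPKM (log2 0.57, limma adjusted p = 0.0464), and here every MANF liver lay above all 4 controls.

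The remaining members of the 9 were Lrat, the enzyme that stores vitamin A as retinyl ester (1.99-fold without control 4, limma adjusted p = 0.0475), the collagen chain genes Col14a1 (log2 0.80) and Col1a2 (0.78) and the proteoglycan gene Bgn (0.74). The summed level of the list was 123 to 144 RPKM in controls 1 to 3, 205 in control 4 and 201 to 222 RPKM in MANF livers. All 9 lost the call when control 1, 2 or 3 or MANF 2 or 4 was also left out (limma adjusted p up to 0.155), and Lrat and Dcn also without MANF 1 or 3, Bgn without MANF 1 and Col1a2 without MANF 3. Under median scaling Col1a1, Col1a2, Lrat, Dcn and Bgn were not called (limma adjusted p between 0.0567 and 0.0944). In the fit to all 16 libraries less control 4, Col1a2, Colec11 and Dcn were not called. Among summed markers of other cells that moved in the same livers, cholangiocyte markers were at 14.3 to 16.3 RPKM in controls 1 to 3, 70.9 in control 4 and 27.3 to 81.8 in MANF livers, with Krt19 and Krt7 too low to test. Their part in the result was not tested.

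**Figure D3:**
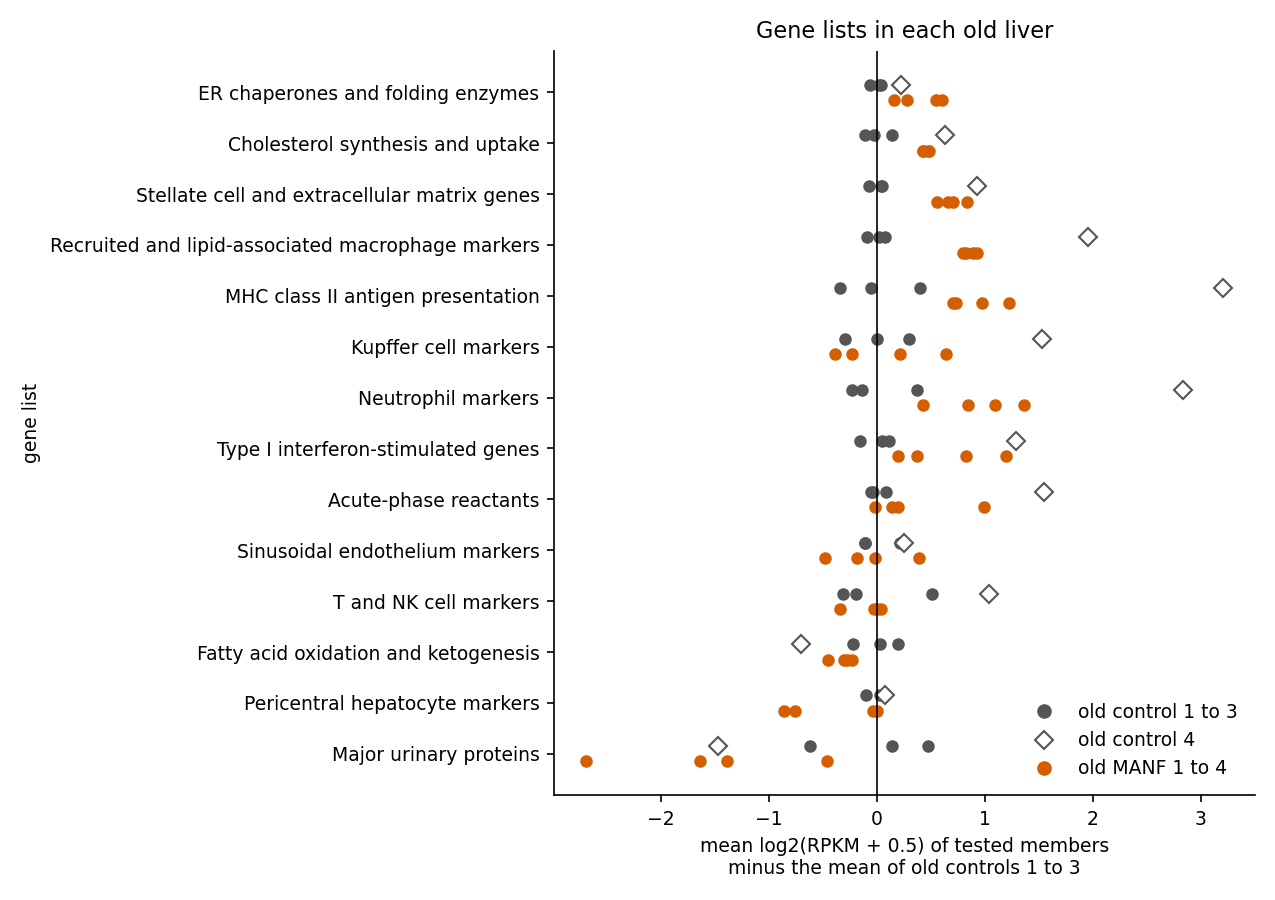
Mean log2(RPKM + 0.5) of the tested members of each gene list in each old liver, minus the mean of controls 1 to 3, one row per list. Control 4, an open diamond, lies to the right of the MANF livers in the macrophage and MHC class II rows, while in the stellate and matrix row the MANF livers lie near it.

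Many macrophage and antigen presentation genes were far higher in control 4 than in any other old liver. Of 12 tested markers of recruited and lipid-associated macrophages, none was called with all 8 livers and 4 rose without control 4, against 1.54% of all genes, with medians of 0.30 and 0.81. They were Cd63, a lysosomal tetraspanin, Ctss, the protease cathepsin S, Itgax, the integrin CD11c, and Lgals3, galectin-3. Ctss was read at 25.5, 28.4, 22.6 and 165 RPKM in controls and at 48.5, 37.9, 44.5 and 42.3 RPKM in MANF livers (log2 0.75 without control 4, limma adjusted p = 0.0272). The MANF livers lay above controls 1 to 3, as in 1764 of the 10463 tested genes, and far below control 4. The summed level of the 15 members with values, tested or not, was 98.1 to 124 RPKM in controls 1 to 3, 716 in control 4 and 177 to 241 in MANF livers.

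The genes of MHC class II, which present peptides to CD4+ T cells, followed the same order. Of 9 tested, 4 rose without control 4, against 1.54% of all genes, namely Cd74, the invariant chain, H2-Ab1 and H2-Eb1, the chains of the presenting complex, and H2-DMb1, which loads the peptide. H2-Ab1 was read at 15.9, 9.93, 18 and 251 RPKM in controls and at 47.2, 41.7, 28.1 and 32.7 RPKM in MANF livers (log2 1.34 without control 4, limma adjusted p = 0.0384, and log2 0.31 with it, 0.949). Cd74 was read at 28.2 to 45.9 RPKM in controls 1 to 3, at 653 in control 4 and at 75.8 to 118 in MANF livers (log2 1.22 without control 4, limma adjusted p = 0.0323). The median of the list was 0.16 with control 4 and 1.04 without it, and its sign turned to -0.24 at the lowest when 1 other control was left out. Under median scaling only Cd74 of these 4 was called (limma adjusted p = 0.0497), and of the macrophage genes Cd63 alone (0.0374). In the fit to all 16 libraries less control 4, none of these 8 genes was called, with limma adjusted p of 0.125 for Cd74 and 0.104 for Cd63.

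Chemokines and interferon-stimulated genes were high in the same liver. Ccl2, the main chemokine for monocytes, was read at 0.519, 0.759, 0.701 and 4.01 RPKM in controls and at 2.02, 2.28, 1.58 and 2.25 RPKM in MANF livers (log2 1.12 without control 4, limma adjusted p = 0.0241). It and Ccl4 (log2 0.72, limma adjusted p = 0.0346) were the 2 of 17 tested chemokines and cytokines that rose without control 4, against 1.54% of all genes, and none was called with it (medians 0.47 and 0.06). Of 31 type I interferon-stimulated genes, none was called either way, 30 lay above 0 with all 8 livers and 31 without control 4, with medians of 0.26 and 0.59. Bst2, the antiviral protein tetherin, stood at 95.7 to 109 RPKM in controls 1 to 3, 186 in control 4 and 118 to 192 in MANF livers (log2 0.37, limma adjusted p = 0.642, and 0.0846 without control 4). The calls of macrophage, MHC class II and chemokine genes without control 4 were lost when control 1, 2 or 3 or MANF 2 or 4 was also left out (limma adjusted p up to 0.153). Those of H2-Ab1, H2-Eb1, H2-DMb1, Itgax and Ccl4 were also lost without MANF 1, that of Lgals3 without MANF 1 or 3, and that of Ccl4 under median scaling (0.0725). Ccl2 and Ccl4 were not called in the fit to all 16 libraries less control 4 either (limma adjusted p = 0.104 for Ccl2).

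Of 16 tested markers of resident Kupffer cells, none was called with all 8 livers, 3 lay above 0 and the median was -0.13. Without control 4, Cd163 alone fell as given above, against 0.335% of all genes. Then 10 lay above 0 and the median was 0.24, so the sign of the list turned with control 4. Marco, a scavenger receptor, was read at 5.88, 14, 7.8 and 26.1 RPKM in controls and at 8.15, 2.95, 3.46 and 1.26 RPKM in MANF livers (log2 -1.66, limma adjusted p = 0.341, and 0.193 without control 4), with MANF 1 inside the range of the controls. The summed level of the list was 177 to 260 RPKM in controls 1 to 3, 820 in control 4 and 195 to 383 in MANF livers. Neutrophil markers, with Ly6g at 0 in all 8 livers, summed to 7.19 to 13.5 RPKM in controls 1 to 3, 166 in control 4 and 14.4 to 46.1 in MANF livers, and the part of these cells in the results was not tested.

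No gene of cholesterol synthesis was called with all 8 livers, and some were without control 4. Of 23 tested, 4 rose, against 1.54% of all genes, 21 lay above 0 and the median was 0.40. With all 8 livers 20 lay above 0 and the median was 0.27. Fdft1, squalene synthase, was read at 24.6, 19.1, 23.6 and 41.9 RPKM in controls and at 36.8, 37.3, 35.2 and 34.6 RPKM in MANF livers (log2 0.68, limma adjusted p = 0.0272). Lss, lanosterol synthase, was at 3.28, 2.59, 3.17 and 5.92 RPKM against 5.34, 5.12, 5.77 and 5.02 RPKM (log2 0.73, limma adjusted p = 0.0241). In both, control 4 was the highest of all 8 livers. Mvd, which makes isopentenyl diphosphate, and Hmgcs1, the cytosolic HMG-CoA synthase, rose by log2 0.98 and 0.94 (limma adjusted p = 0.0297 and 0.0444). With control 4 the differences of Fdft1, Lss, Mvd and Hmgcs1 were log2 0.46, 0.51, 0.63 and 0.58 (limma adjusted p between 0.445 and 0.621). Fdft1 shares 774 exon bases with the protease gene Ctsb on the opposite strand. All 4 calls were lost when control 1, 2 or 3 or MANF 2 or 4 was also left out (limma adjusted p up to 0.156), and that of Hmgcs1 under median scaling (0.0705). None of the 4 was called in the fit to all 16 libraries less control 4.

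Genes of lipid storage and of glucose release were among those lower without control 4. G0s2, an inhibitor of the lipase ATGL, was read at 39.1, 23.7, 36.1 and 12.3 RPKM in controls and at 15.3, 11.8, 9.34 and 8.12 RPKM in MANF livers (log2 -1.53, limma adjusted p = 0.0311). G6pc, glucose-6-phosphatase, the last step of glucose release, was at 309, 429, 363 and 113 RPKM against 125, 157, 100 and 169 RPKM (log2 -1.43, limma adjusted p = 0.0252). Control 4 lay within the MANF range for both, and with it neither was called (0.288 and 0.442). Fgf1, a growth factor with effects on glucose, was at 27, 23.8, 24.8 and 15.3 RPKM against 14, 12.2, 9.33 and 10.6 RPKM (log2 -1.11, limma adjusted p = 0.0241), and all MANF livers lay below all 4 controls.

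Lists of lipid and glucose genes held few calls. Of 20 tested genes of lipid droplets and fatty acid uptake, 3 fell without control 4, against 0.335% of all genes, namely Fitm2, which shapes lipid droplets (log2 -0.65), Plin4, a droplet coat protein (-0.87), and G0s2. Of 29 genes of fatty acid oxidation and ketogenesis, 1 fell, Angptl4, a PPARα target that inhibits lipoprotein lipase (log2 -0.70, limma adjusted p = 0.0272), and 3 lay above 0, with a median of -0.24. Of 24 genes of glucose metabolism and insulin signalling, 1 fell, G6pc. Outside these lists Lipg, endothelial lipase (log2 -1.19), Abhd6, a monoacylglycerol lipase (-1.24), and Ppp1r3b, which brings phosphatase to glycogen (-1.04), fell too. With all 8 livers none of the genes of this and the preceding paragraph was called, and without control 1, 2 or 3 or MANF 2 or 4 besides control 4 none was either (limma adjusted p up to 0.158). Plin4 was also lost without MANF 1 or 3, Ppp1r3b without MANF 1, and Abhd6 without MANF 3 or under median scaling (0.0522). In the fit to all 16 libraries less control 4, G0s2, G6pc, Plin4, Angptl4, Lipg and Ppp1r3b were not called. Fgf1 was called in the fit to all 16 libraries with control 4 kept.

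**Figure D4:**
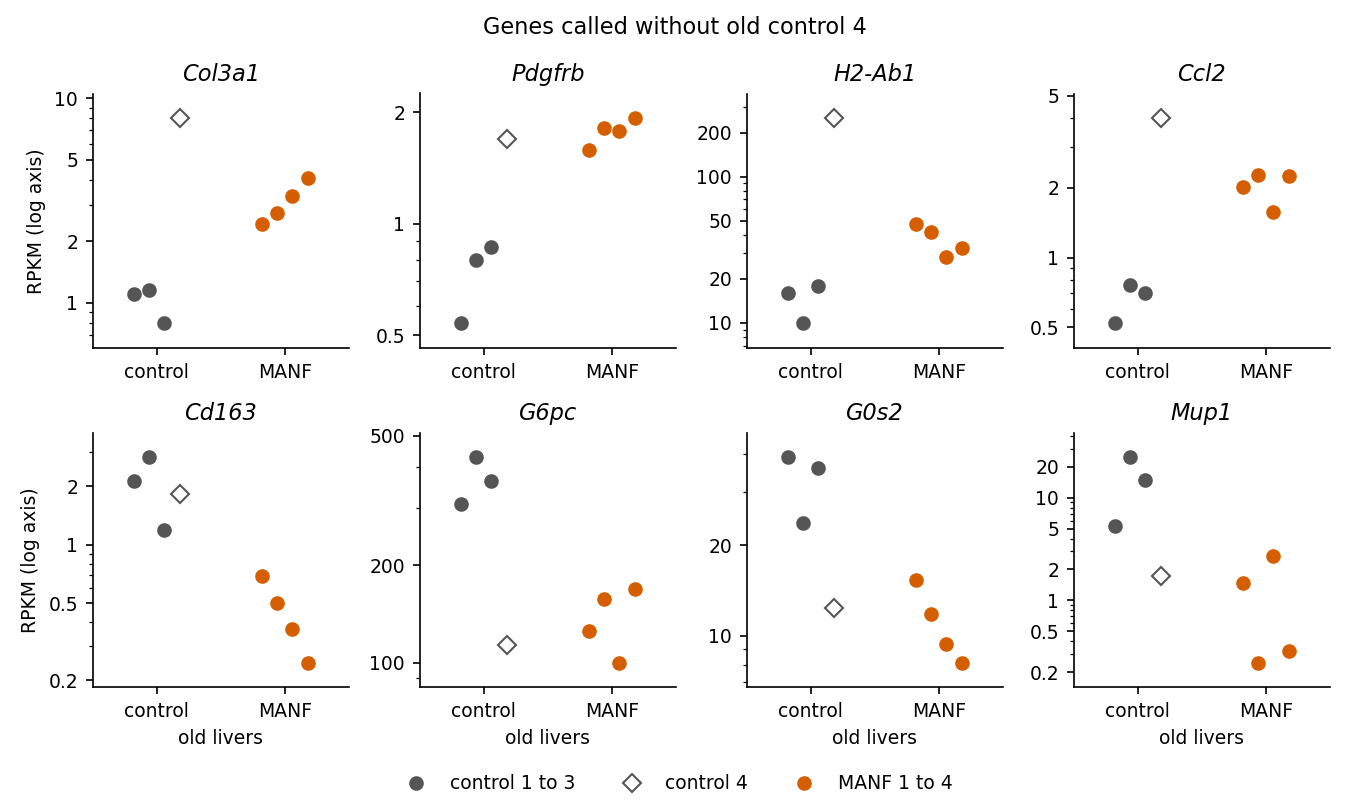
RPKM of each old liver on log axes for 8 genes called without control 4 and not with all 8 livers, Col3a1, Pdgfrb, H2-Ab1 and Ccl2 in the upper and Cd163, G6pc, G0s2 and Mup1 in the lower row. Control 4, an open diamond, lies above the MANF livers for Col3a1, H2-Ab1 and Ccl2, within or near them for Pdgfrb, G6pc, G0s2 and Mup1, and with the other controls for Cd163.

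Major urinary proteins, secreted by mouse liver under growth hormone and testosterone, were lower in most members. Of 17 tested, 1 difference lay above 0 and the median was -1.05 with all 8 livers and -1.41 without control 4. Mup1 was the only one to fall, when control 4 was left out, against 0.335% of all genes. It was read at 5.31, 24.7, 14.8 and 1.74 RPKM in controls and 1.48, 0.247, 2.69 and 0.323 RPKM in MANF livers (log2 -3.22, limma adjusted p = 0.0486). Mup12 was at 18.1, 38.4, 35 and 6.68 RPKM against 6.59, 0.793, 10.9 and 2.81 RPKM (log2 -2.77 without control 4, limma adjusted p = 0.0765). The summed level of all Mup genes in the table overlapped, at 5268 to 8871 RPKM in controls and 5042 to 6819 RPKM in MANF livers. The Mup genes are nearly alike in sequence, and the sources used here do not say how a read that fits more than 1 of them was counted, so values of single members are uncertain. Ugt2b38, a glucuronosyltransferase of the male-biased list, fell without control 4 (log2 -1.57, limma adjusted p = 0.0436), the only one of 25, against 0.335% of all genes. Both calls were lost when control 1, 2 or 3 or MANF 2 or 4 was also left out (limma adjusted p up to 0.156), and that of Mup1 also without MANF 1 or under median scaling (0.0573).

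Of 24 tested clock genes and clock outputs, Nr1d1 alone was called with all 8 livers, against 0.0478% of all genes higher. Of the 24, 10 lay above 0, with a median of -0.02. Dbp, an output transcription factor of the clock, was read at 13.9, 14.2, 18.4 and 20.7 RPKM in controls and at 31.7, 34.1, 21.4 and 29.9 RPKM in MANF livers, so MANF livers were above all controls (log2 0.78, limma adjusted p = 0.182). Without control 4, when 1.54% of all genes rose and 0.335% fell, Dbp rose (log2 0.89, limma adjusted p = 0.0475), and Lonrf3 fell (log2 -0.80, limma adjusted p = 0.0487). Neither was called without control 1, 2 or 3 or MANF 2 or 4 besides control 4 (limma adjusted p up to 0.165), Dbp also not without MANF 1 and Lonrf3 not without MANF 3, and Dbp was not under median scaling (0.0652). Dbp shares 539 exon bases with Sphk2 on the opposite strand.

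Few genes of bile acids, drug metabolism, defence and the acute phase were called. Cyp7a1, the rate-limiting enzyme of bile acid synthesis, was read at 56.5, 43.3, 35.9 and 38 RPKM in controls and at 23.6, 16.2, 7.74 and 32.3 RPKM in MANF livers, and Cyp8b1, which sets the share of cholic acid, at 56.2 to 141 and 19.3 to 46.9 RPKM. The MANF livers lay below all controls for both, yet neither was called (log2 -1.25 and -1.20, limma adjusted p = 0.309 and 0.27, and 0.138 and 0.131 without control 4). Abcb11 of the same list went the other way. It was at 43.2 to 53.4 RPKM in controls and 55.8 to 81.3 RPKM in MANF livers, without overlap (log2 0.53, limma adjusted p = 0.185, and 0.0886 without control 4). All MANF livers lay above all controls in 2 of the 23 bile acid genes and below them in 2, against 3.51% and 1.82% of all tested genes. None of 23 bile acid genes was called with or without control 4. Without control 4, Por, the reductase that feeds electrons to cytochromes P450, fell (log2 -0.68, limma adjusted p = 0.0436), and Gstm4, a glutathione transferase, rose (log2 0.70, limma adjusted p = 0.0248). Saa4, a constitutive serum amyloid A, was read at 146, 127, 137 and 221 RPKM in controls and at 83.9, 83.1, 97.1 and 99 RPKM in MANF livers, and fell without control 4 (log2 -0.59, limma adjusted p = 0.0328). Without control 1, 2 or 3 or MANF 2 or 4 as well, none of these calls held (limma adjusted p up to 0.156), nor did those of Por and Saa4 without MANF 1. Por was also not called in the fit to all 16 libraries less control 4. Por, Gstm4 and Saa4 were the only calls among 27 xenobiotic, 26 glutathione and NRF2 and 26 acute-phase genes. Without control 4, 1.54% of all genes rose and 0.335% fell.

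The largest rises called without control 4 among better expressed genes also included Krt18 and Spon2. Krt18, a keratin of hepatocytes and bile ducts, was read at 34.9, 36.5, 40.2 and 91.3 RPKM in controls and at 61, 95.3, 116 and 78.1 RPKM in MANF livers (log2 1.19, limma adjusted p = 0.0323). Spon2, a secreted matrix protein, was at 0.895, 0.472, 0.669 and 1.21 RPKM against 1.56, 3.39, 1.74 and 2.4 RPKM (log2 1.20, limma adjusted p = 0.0464). The MANF livers lay above all 4 controls for Spon2 and around control 4 for Krt18, and with control 4 neither was called (0.412 for Krt18 and 0.182 for Spon2, limma adjusted p). Both lost the call without control 1, 2 or 3 or MANF 2 or 4 besides control 4 (limma adjusted p up to 0.156), and Spon2 lost it under median scaling (0.0628). Krt18 also lost it in the fit to all 16 libraries less control 4.

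Whether the difference between MANF and control livers depended on age was tested for each gene with all 16 libraries, and none of the 10463 genes passed (0%), while 863 had an unadjusted limma p below 0.05. The smallest p belonged to Bmp5, a bone morphogenetic protein, at 1.64 ± 0.103 RPKM in old control and 2.45 ± 0.392 RPKM in old MANF livers, and at 2.27 ± 0.27 and 1.39 ± 0.349 RPKM in the young groups (SD, n = 4, difference of log2 1.01, limma adjusted p = 0.284). Car5a, a mitochondrial carbonic anhydrase, went the other way, at 36.8 ± 1.48 and 30.5 ± 2.53 RPKM in old and 28.8 ± 2.74 and 37.8 ± 1.89 RPKM in young livers (SD, n = 4, difference of -0.66, limma adjusted p = 0.284). Mtmr11, a myotubularin-related protein (difference of log2 1.76), Mageh1 (1.05) and Angptl2, a secreted angiopoietin-like protein (0.78), came next, at limma adjusted p of 0.34. Bmp5 and Mtmr11 share 1878 and 1428 exon bases with predicted genes on the opposite strand. For Manf the difference between the ages was log2 0.86 and for Hspa5 0.81, neither past adjustment (limma adjusted p = 0.601 for both). Both values are the old difference minus the young one. Manf differed by log2 0.16 in young livers. The value of Hspa5 exceeded its old difference of log2 0.64, so its young difference was negative. Scaling all libraries to equal medians moved the median of the age difference over all genes from 0.12 to -0.03 and called none either.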

How the data were processed

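RNA of flash frozen liver had been extracted with Trizol and sequenced after TruSeq Stranded mRNA LT preparation, per the labels' protocols. The authors deposited 1 table of RPKM values for 16 libraries. STAR 2.4.2a, HTSeq and mm10 are named in the submitters' processing notes without further settings, and the strand setting of counting is not given in the sources used here. The whole reads behind the RPKM were recovered (100.0% of values above 0, tolerance 0.002 reads, at most 0.2 for high counts). The old libraries held 12.57 to 15.24 M reads (M, megareads) in listed genes. Of 24 entries with a date number in place of a symbol, 13 were tested and none named.

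Values were analysed as log2(RPKM + 0.5), which understates changes of low genes. limma 3.58.1 in R 4.3.3 was fitted to the 8 old libraries with an intensity trend, two-sided, with Benjamini-Hochberg adjustment over 10463 genes, and again without control 4. The age difference and the young comparison used all 16 libraries. Manf had an exact permutation test. The code was tested on simulated data. Alternatives were the pseudocount, the filter, median and quantile scaling, all 16 libraries, arrayWeights, voom on recovered reads, a replicate block and leaving out each library. Alternatives within the fit without control 4, and leaving out 2 libraries, were added after seeing the data.

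Genes were named by rule: per direction the 12 largest called changes where a group mean reached 1 RPKM (filled with the smallest p where fewer were called with all 8 livers), the 5 smallest p of the age difference, up to 4 members of each list with the smallest p in either fit, and Manf, Cdnf, Hspa5 and Creld2. The rule took 274 genes, the text names 92 as results, some others are not reported here, and Canx, Dnajc3, Col1a2 and Bgn were chosen after their values were seen. The comparison, its rule, the 43 gene lists (906 symbols) and these choices were made with earlier results of these data known. Positions and exons come from a GENCODE annotation of GRCm38, in which 23 of the 92 genes share an exon base with another gene and 14 share at least 200. Beside those named in the report these 14 include Acot11 (1263 bases, Fam151a), Hmgcs1 (557), Sec61a1 (549), Hsp90b1 (415), Lss (381), Car5a (314) and Fitm2 (227), all on the opposite strand, and their values are uncertain to that extent.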

Additional observations from a re-analysis of the deposited data

Results flagged for a closer look

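In 13 of 184 groups of 4 livers examined, 1 liver lay so far from the other 3 that its gap divided by the range of the group's log2 values passed Dixon's 95% critical value for 4 samples. Chance flags about 1 in 20 such groups. Many of these genes were named because they were called when control 4 was left out, so a flag on control 4 in them follows from that choice and is given as a description. Control 4 was the liver in 11 of the 13, as the highest of its group. The ratio was 0.944 for Itgax, 0.886 for Ctss, 0.879 for H2-DMb1, 0.847 for Cd63, 0.847 for Lgals3, 0.846 for Cd74, 0.858 for Ccl2, 0.870 for Col3a1, 0.835 for Col1a1, 0.853 for Krt18 and 0.845 for Mvd. These genes of macrophages, antigen presentation, matrix, keratin and cholesterol synthesis were called higher in MANF livers when that liver was left out, and not with all 8 livers. Control 2 was set apart for Abca8b (0.985), at 6.04 RPKM against 6.23 to 6.24, and for Amt (0.881), at 8.72 RPKM against 8.2 to 8.26. No group of MANF livers was set apart.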

How the results depend on the processing

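With all 8 old livers, the 5 higher and 1 lower genes became 1 and 0 without a filter on low values, 0 and 0 under median and under quantile scaling, 9 and 3 in a fit to all 16 libraries, with 3 of the 6 genes among them, 68 and 31 with arrayWeights, which gave control 4 a weight of 0.288, and 3 and 1 with voom. Leaving out 1 library gave 0 to 161 higher and 0 to 35 lower genes. Without control 4, the 161 higher and 35 lower genes became 35 and 10 without a filter, 60 and 51 under median scaling, 56 and 50 under quantile scaling, 119 and 32 in a fit to all 16 libraries less control 4, 362 and 76 with arrayWeights and 90 and 52 with voom, and leaving out 1 further library gave 0 to 206 higher and 0 to 41 lower. The 0 genes of the age difference became 5 with arrayWeights, 0 to 2 with 1 library left out (2 without young MANF 4) and 1 without control 4 and young MANF 3. Manf passed the threshold with arrayWeights (log2 1.02, limma adjusted p = 0.0412). With 1 library left out the Manf log2 lay between 0.91 and 1.13, and it was called without control 4 alone (1.11). Differences of some genes with all 8 livers changed sign with 1 library left out, between -0.29 and 1.22 for Cd74, -0.19 and 1.34 for H2-Ab1, -0.18 and 1.35 for H2-Eb1, -0.24 and 1.04 for H2-DMb1, -0.19 and 0.75 for Ctss and -0.19 and 0.71 for Lgals3. The causes of these shifts were not tested, other than the number of genes or samples that a setting itself changes.

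No pairing of the livers by replicate number was seen. The correlations of same-numbered deviations were 0.0552, -0.0908, 0.0638 and 0.00878, and those of differently numbered livers lay between -0.168 and 0.158. With the replicate number as a block 0 genes were higher and 0 lower, both with all 8 livers and without control 4. The block leaves less from which to estimate the spread, so its lack of calls does not tell whether livers were paired.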

Other observations

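No gene of the lists in this paragraph was called with or without control 4. All 40 cytosolic ribosomal protein genes lay above 0, with a median log2 of 0.12 with all 8 livers and 0.20 without control 4, against 0.03 and 0.08 over all genes. Their summed level was 3579 to 4041 RPKM in controls 1 to 3, 4896 in control 4 and 4297 to 4422 in MANF livers. Of 31 proteasome subunits, 30 lay above 0 with a median of 0.16 (0.23 without control 4). Pericentral hepatocyte markers leaned down, with 3 of 19 above 0 and a median of -0.37, and their summed level was 1828 and 2303 RPKM in MANF 2 and 4 against 4178 to 4515 in the other 6 livers. Genes of lipogenesis were uneven among the MANF livers, at 3205, 4548, 1381 and 2923 RPKM summed against 1842 to 2599 in controls.

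Markers of sinusoidal endothelium had medians of -0.16 and -0.09 with and without control 4, and those of T and NK cells of -0.41 and -0.17, with Cd3d, Cd3e, Cd3g and Cd4 too low to test. T and NK cell markers summed to 8.52, 6.5, 20 and 29.7 RPKM in controls and to 6.64 to 10.7 RPKM in MANF livers. Acute-phase reactants summed to 10939 to 11777 RPKM in controls 1 to 3, 21740 in control 4 and 10903 to 19889 in MANF livers, and interferon gamma-inducible GTPases to 77.1 to 107, 493 and 119 to 187 RPKM.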
